A study of Rattus norvegicus with 6 samples.

Results

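The 69 genes described here encode proteins of the cytosolic ribosome. They were chosen by symbol alone, from 14390 genes to which the authors assigned chromatin immunoprecipitation (ChIP-seq) peaks: Rpl or Rps with a number and at most a short suffix, without the Rps6k kinases, together with Rplp0, Rplp1, Rplp2 and Rpsa. The gene name in the deposited table contained "ribosomal protein" for all 69. The labels describe PC12, a cell line from a rat tumour of the adrenal medulla whose precursors arise in the neural crest, although the series' design text speaks of tissues. The cells, at passages 18 to 20, were stable lines of 2 kinds: controls with pCDNA3 alone (empty vector) and cells expressing α1ACT of human origin, titled Q11. α1ACT is a second protein read from the mRNA of the calcium channel gene CACNA1A and acts on transcription. Each line gave a library precipitated with the anti-FLAG antibody M2, a library precipitated with an antibody labelled 1804, whose target the labels do not name, and an input. Each of these 6 groups holds 1 library. The labels do not say whether a line was 1 clone. With 1 library a group there are no replicate errors, and conditions could not be tested against each other.

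The ribosome is built from a small (40S) and a large (60S) subunit, each an RNA core bound by many different proteins. The genes of these proteins are expressed in practically all cells and at similar rates. Their mRNAs begin with a 5′ terminal oligopyrimidine (TOP) tract, a cytosine followed by a run of pyrimidines, through which the mTOR pathway and the protein LARP1 control their translation. Their promoters are known for this initiator and for sites of ETS-family factors, whereas a TATA box is often missing. Many have intronless copies elsewhere in the genome, so that reads of a family can be shared between loci.

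The annotated table lists peaks of the α1ACT 1804 library that overlap no peak of the empty-vector lists. Each row names the nearest gene and how far the peak lies upstream or downstream of that gene's transcription start site (TSS). A peak at most 1000 bp from the TSS is called a promoter peak below. The signal of a peak is the authors' own value, in arbitrary units, and ranks peaks only within this list. Read depth is unknown.

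The starts of 10 of these genes are shown here to let the TOP tract be seen. It was found within 5 bases of the annotated start in 7 of them, beside 3 without one there (Rpl18, Rps19 and Rps6). The Rps6 window holds a C followed by pyrimidines farther upstream, cctcct. The 10 include genes with high, intermediate and no promoter peaks. Each line gives 15 bases before and 15 from the annotated start, and capitals mark the pyrimidine tract where one was found.

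Rpl31: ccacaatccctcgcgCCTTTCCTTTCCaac
Rps27: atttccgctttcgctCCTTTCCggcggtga
Rpl37: tggtaggcgtactttCTCTTCCggtctctt
Rpl19: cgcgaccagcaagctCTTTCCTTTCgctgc
Rps18: cacgtcacttccgctCTCTCTTCCacagga
Rpl18: tctggacctggtctagcaggaggcgccatc
Rps19: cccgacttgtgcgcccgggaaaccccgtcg
Rpl12: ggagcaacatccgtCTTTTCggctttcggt
Rpl28: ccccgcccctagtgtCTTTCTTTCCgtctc
Rps6: gacgcctcctaggcggtcggctgtgtcaag

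These sequences are RefSeq's, on build GRCr8, and not on the build rn5 of the peak files, so peaks could not be laid over them. On GRCr8 they lie at chr9:49143096-49143125 (Rpl31, plus strand), chr2:177964592-177964621 (Rps27, minus), chr2:55942930-55942959 (Rpl37, plus), chr10:83519049-83519078 (Rpl19, plus) and chr20:4933730-4933759 (Rps18, plus). The others lie at chr1:105325255-105325284 (Rpl18, plus), chr1:89608673-89608702 (Rps19, plus), chr3:36661925-36661954 (Rpl12, plus), chr1:78083518-78083547 (Rpl28, minus) and chr5:106420526-106420555 (Rps6, minus). Each window spans the promoter and the first transcribed bases.

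A promoter sequence was matched for 57 of the 69 genes, 1 of them by symbol only. A TOP-type start, a C within 5 bases of the annotated start followed by at least 4 C or T, was found in 32 of the 57 (56.1%, exact 95% interval 42.4 to 69.3) in 16.3% of the 11856 genes of the annotated table with a matched promoter, and in 17.0% of all 33469 promoters in the RefSeq table. The shares after "against" below are those of the 11856 genes. When the C had to stand exactly at the start, the share was 35.1% against 2.40%. It was 82.5% against 47.0% when the C could lie up to 20 bases away. The ETS-type motif CCGGAAG, searched on both strands over 250 bases before and 50 after the start, was in 21 of 57 (36.8%, 24.4 to 50.7, against 12.9%), and in 8.75% of all RefSeq promoters. The SP1-type motif GGGCGG was in 34 (59.6%, 45.8 to 72.4), an interval that includes the 51.9% of the table's genes; its share of all RefSeq promoters was 33.1%. The YY1-type motif AAGATGGC was in 4 (7.02%, against 4.10%) and the E-box CACGTG in 5 (8.77%, against 8.16%). The TATA motif TATAAA was in 7 (12.3%, 5.08 to 23.7), above the 11.5% of the table's genes and below the 14.2% of all RefSeq promoters, both inside the interval. The AT-rich hexamer TTATAA was in 2 (3.51%, against 4.76%). TATAAA and TTATAA share the letters TATAA, and CCGGAAG and AAGATGGC can overlap by AAG. These matches describe letters and not bound sites.

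Of the 69 genes, 47 had a promoter peak in the α1ACT 1804 library (68.1%, exact 95% interval 55.8 to 78.8). The share over all genes of the table was 43.2% (6219 of 14390). The interval covers counting error only. In all, 60 of the 436 peaks assigned to ribosomal protein genes were promoter peaks (13.8%, 10.7 to 17.4), where 5.75% of all 159452 annotated peaks were. The table holds only genes with an assigned peak. RefSeq lists 77 protein-coding genes with a ribosomal protein symbol without a "-like" suffix, of which 65 were in the table. The 12 others included Rpl4, Rpl5, Rpl10, Rpl17, Rpl23, Rpl23a, Rpl32, Rpl35a, Rpl36a, Rps9 and Rps27a. If these count as without a promoter peak, the share was 45 of 77 (58.4%, 46.6 to 69.6). The 43.2% covers only genes in the table, and a share over all genes counted in this way is not available for comparison.

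Small and large subunit genes had promoter peaks about equally often. Among small subunit genes 20 of 30 did (66.7%, 47.2 to 82.7), and among large subunit genes 27 of 39 (69.2%, 52.4 to 83.0). The median of the highest promoter signal per gene was 6.78 for the small and 5.56 for the large subunit. Over all 47 it was 5.87, with a range from 2.63 to 17.1, and over all 6219 genes with a promoter peak it was 4.92. Of the 47, 29 lay above that median (61.7%, 46.4 to 75.5). In the upper 10% of such genes lay 5 of the 47 (10.6%, 3.55 to 23.1), a share near the 10% of all genes.

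**Figure D1:**
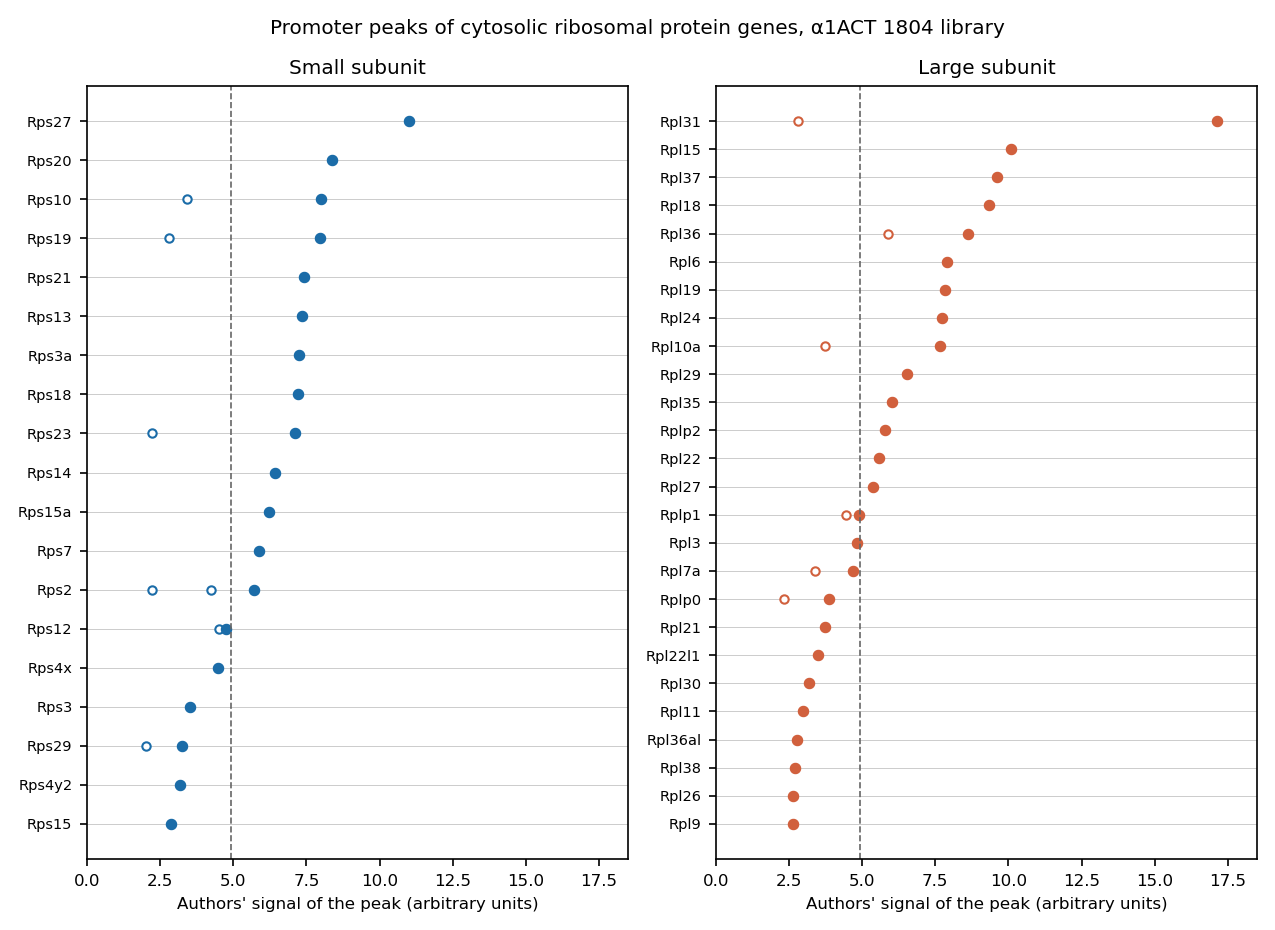
Authors' signal (arbitrary units, x axis) of each promoter peak, by gene (y axis), for 45 of the 47 ribosomal protein genes that have one, in the α1ACT 1804 library. Filled points are the highest peak of a gene, open points its other promoter peaks, and the dashed line is the median of the highest promoter signal over all genes, 4.92; 27 of the 45 genes drawn lie to its right.

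Among small subunit genes, Rps27 and Rps20 had promoter peaks of high signal. Rps27, a zinc-binding protein of the small subunit, had a signal of 11.0 on chromosome 2 from 209005855 to 209005910, 167 bp downstream. Rps20, on chromosome 5 from 21487034 to 21487089, had 8.36 at 107 bp downstream. Both peaks lay inside the transcribed region near its start.

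Rps10 and Rps19 followed, each with 2 promoter peaks. Rps10 had a signal of 8.01 at 56 bp upstream of the TSS, on chromosome 20 from 9422742 to 9422797, and of 3.40 at 920 bp downstream. Rps19, the gene most often mutated in Diamond-Blackfan anaemia, an inherited failure of red cell production, had 7.98 at 63 bp upstream of its locus on chromosome 1, from 83007826 to 83007881. The authors' annotation placed the same Rps19 transcript at a further locus on chromosome 9, where a peak 8 bp upstream had a signal of 2.80. Rpl7a was likewise annotated at 2 loci, both on chromosome 3, with 1 promoter peak at each (signals 4.67 and 3.40), and Rpl8 at 2 loci on chromosome 7 with none. Which of the copies gave the reads cannot be told from a peak list.

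Rps2, whose protein sits near the mRNA entry of the small subunit, had 3 promoter peaks, more than any other of these genes. Their signals were 5.70 at 297 bp downstream, 4.23 at 731 bp upstream and 2.23 at 310 bp upstream, so the highest lay in the gene. Gnb2l1, the older symbol of the scaffold Rack1 on the head of the small subunit, is not among the 69. It had 1 promoter peak with a signal of 5.58.

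Rpl31 had the highest promoter signal of all 69 genes. Its protein lies near the exit of the tunnel through which new polypeptides leave the large subunit. The peak lay on chromosome 9 from 45774914 to 45774969, 98 bp into the gene. Its signal was 17.1, above that of 99.9% of the annotated peaks. Among genes with a promoter peak it stood at percentile 99.4. A weaker peak lay 722 bp upstream with a signal of 2.80.

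The next large subunit genes were Rpl15, Rpl37, Rpl18 and Rpl36. Rpl15 had a signal of 10.1 on chromosome 15 from 12251192 to 12251247, 471 bp downstream of the TSS. The only peak of Rpl37 had 9.62 and lay 355 bp upstream, on chromosome 2 from 73857122 to 73857177. Rpl18 had 9.34 at 129 bp upstream, on chromosome 1 from 102779613 to 102779668. Rpl36, the shortest of the 69 genes with 754 bp, had 8.63 at 73 bp and 5.87 at 774 bp downstream, so that the second peak lay past the gene's end. Rpl10a had 7.66 at 127 bp and 3.74 at 366 bp downstream. At the low end were Rpl38 with 2.71, Rpl26 with 2.64 and Rpl9 with 2.63, near the lowest signal in the list, 2.00.

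The genes of the stalk proteins, which recruit elongation factors to the ribosome, all had promoter peaks. The highest signals of Rplp0 and Rplp1 lay below the median of all genes with a promoter peak (4.92), and that of Rplp2 above it. Rplp0, the base of the stalk, had 3.87 at 437 bp upstream and 2.32 at 145 bp downstream. Rplp1 had 4.88 over the TSS and 4.44 at 215 bp downstream, and Rplp2 had 5.78 at 78 bp downstream. Rpl11, which with Rpl5 and the 5S RNA can bind the p53 regulator Mdm2, had 2.98 at 131 bp upstream, below the median of all annotated peaks (3.02). Rpl5 was not in the table.

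The remaining 22 genes had no promoter peak. They included Rpl7, Rpl8, Rpl12, Rpl13, Rpl13a, Rpl14, Rpl27a, Rpl28, Rpl34, Rpl39, Rpl39l, Rpl41, Rps6, Rps16, Rps24, Rps25, Rps26, Rps27l, Rps28 and Rpsa. Their nearest peak lay between 1008 and 35894 bp from the TSS, with a median of 5153 bp, and 10 of the 22 had only 1 assigned peak. Rps6, the ribosomal substrate of the S6 kinases, had its single peak 3817 bp upstream with a signal of 2.43. Rpsa, also known as the laminin receptor, had its single peak 6012 bp upstream with 4.22. The highest-signal peak of any of the 69 outside a promoter was that of Rpl7, 11.9, inside the gene 2394 bp downstream of the TSS. The 1000 bp limit parted neighbouring values: just inside lay peaks of Rps12 (882 bp, signal 4.73), Rps10 (920 bp, 3.40) and Rps4y2 (947 bp, 3.18), and just outside peaks of Rps27l (1008 bp, 2.45), Rpl35 (1112 bp, 4.49) and Rplp1 (1175 bp, 2.78).

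Peaks near some of these starts were assigned to a neighbouring gene. Rpl12, a protein at the base of the stalk, had no promoter peak of its own in the table. A peak with a signal of 15.0 nevertheless lay on chromosome 3 from 17346135 to 17346190, its nearer edge 21 bp upstream of the Rpl12 TSS. The authors assigned it to Lrsam1, a ubiquitin ligase gene whose TSS lies at 17346096, 115 bp from that of Rpl12. Of the promoter peaks in the table assigned to the 69 genes, only that of Rpl31 had a higher signal. The edge of the Rps27l peak also fell inside 1000 bp, since the authors' distances run to the far edge of a 56 bp peak for genes on the plus strand. With any peak edge within 1000 bp of the TSS counted, whichever gene it was assigned to, 49 of the 69 had one. A share over all genes by this looser rule is not available for comparison.

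Most of the promoter peaks lay over or downstream of the TSS, in a share near that of all promoter peaks. Of the 60, 39 lay over or downstream of the TSS (65.0%, 51.6 to 76.9), where 66.6% of all 9175 promoter peaks did. From the TSS to 300 bp downstream lay 33 (55.0%, 41.6 to 67.9), against 40.7% of all promoter peaks, and between 301 and 1000 bp downstream lay 6 (10.0%, against 25.9%). The 100 bp just upstream held 8 (13.3%, against 7.41%). The band from 101 to 200 bp downstream held 12 peaks with a median signal of 7.23, where all promoter peaks of that band had 4.73. The 7 peaks over the TSS had a median of 4.49, against 4.56. Measured from the peak centre instead of the authors' edge, 60.7% lay over or downstream and 50.8% within 300 bp downstream, against 63.0% and 37.1% of all promoter peaks.

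**Figure D2:**
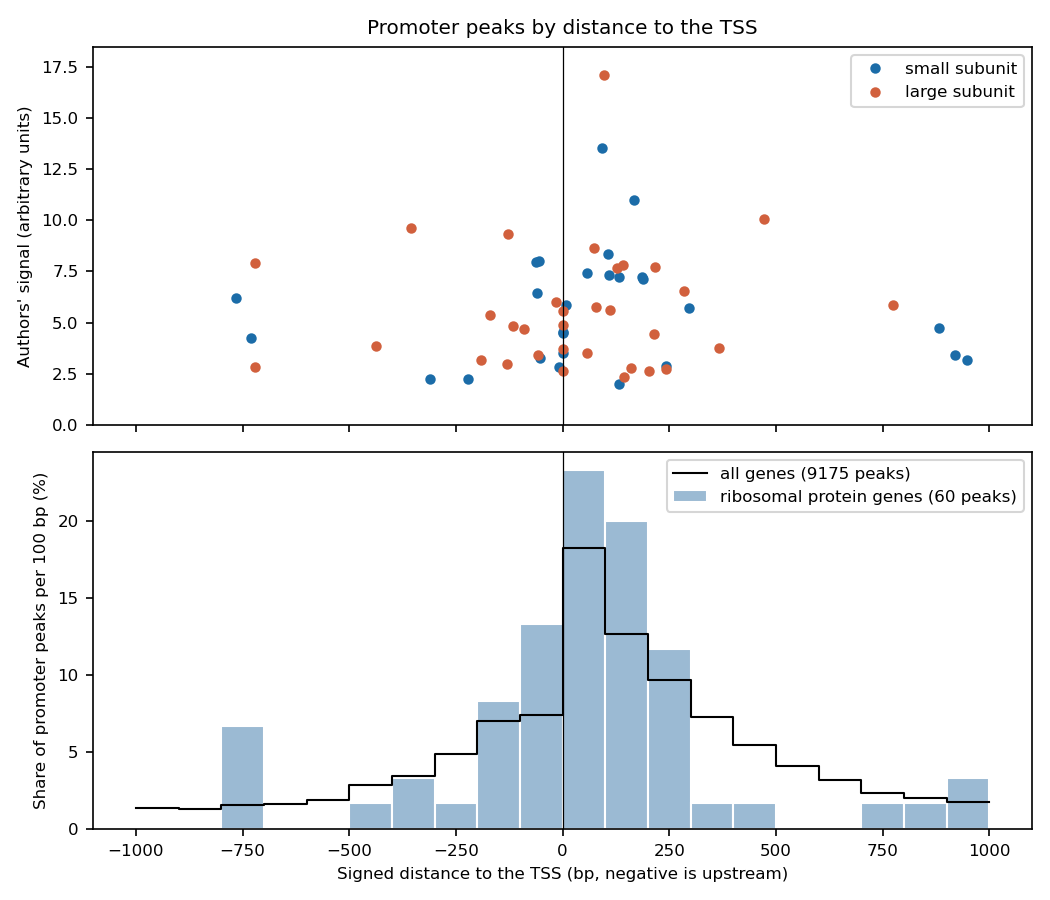
Upper panel, authors' signal (arbitrary units) of the 60 promoter peaks against their signed distance to the TSS (bp, negative is upstream); lower panel, share of promoter peaks in each 100 bp for these genes (bars) and for all genes (line). The peak of Rpl31, with a signal of 17.1, lies 98 bp downstream, and that of Rps27, with 11.0, 167 bp downstream.

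Most genes carried a single promoter peak. Of the 47, 35 had 1, 11 had 2 and 1 had 3, so that 25.5% had 2 or more (13.9 to 40.3), against 34.9% of all genes with a promoter peak. The signal of the 60 peaks had a median of 5.13 (all promoter peaks, 4.36), and that of the other 376 peaks of these genes a median of 3.00, close to 3.02 for all annotated peaks. The authors' −log10 q of the 60 ran from 1.34 to 3.89.

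Most of the remaining 376 peaks were far from the genes. Of the 436 peaks, 325 were annotated as distal intergenic (74.5%, against 74.6% of all peaks) and 28 as intronic (6.42%, against 16.2%). Of the 376, 14 overlapped the gene and 362 lay outside it. The genes with the most assigned peaks were Rps29 with 69, Rps15a with 52, Rpl38 with 30, and Rpl15 and Rps4y2 with 21 each. Together these held 193 of the 436 (44.3%). Of the 69 Rps29 peaks 98.6% lay outside the gene, over 1.05 Mb of chromosome 6, and all 52 of Rps15a did, over 1.04 Mb. Without these 5 genes, promoter peaks made up 54 of 243 (22.2%, 17.2 to 28.0). The authors' rule gives a peak to the nearest gene, however far.

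Ribosomal protein genes are short, with a median annotated length of 2894 bp against 16951 bp over all genes of the table, and had a median of 3 assigned peaks against 4. Gene length and peak number were therefore compared class by class. Among genes no longer than the longest of the 69 (7631 bp), 35.3% had a promoter peak. Of these short genes, 924 were olfactory or vomeronasal receptor genes, and without them the share was 43.0%. Up to 2000 bp, 13 of 16 ribosomal protein genes had a promoter peak (81.3%, 54.4 to 96.0), against 20.0% of all genes of that length, or 33.1% without the receptor genes. From 2001 to 4000 bp the numbers were 22 of 37 (59.5%, 42.1 to 75.2) against 46.5%, and from 4001 to 7631 bp 12 of 16 (75.0%, 47.6 to 92.7) against 47.2%. In the middle class the interval included the share of all genes.

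The difference from all genes was larger in classes with more assigned peaks, though a promoter peak is itself an assigned peak. Among genes with a single peak the interval included the share of all genes. Of 16 such ribosomal protein genes 6 had it in the promoter (37.5%, 15.2 to 64.6), and of all such genes 34.5% did. With 2 to 3 assigned peaks, 20 of 29 had a promoter peak (69.0%, 49.2 to 84.7, against 48.9%). With 4 to 9 peaks, 11 of 13 did (84.6%, 54.6 to 98.1, against 49.8%), and with 10 or more, 10 of 11 (90.9%, 58.7 to 99.8, against 36.3%). The classes were not matched for length. With 10 or more peaks the median length was 2157 bp for ribosomal protein genes and 30938 bp for all genes. The receptor genes were kept in these classes.

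**Figure D3:**
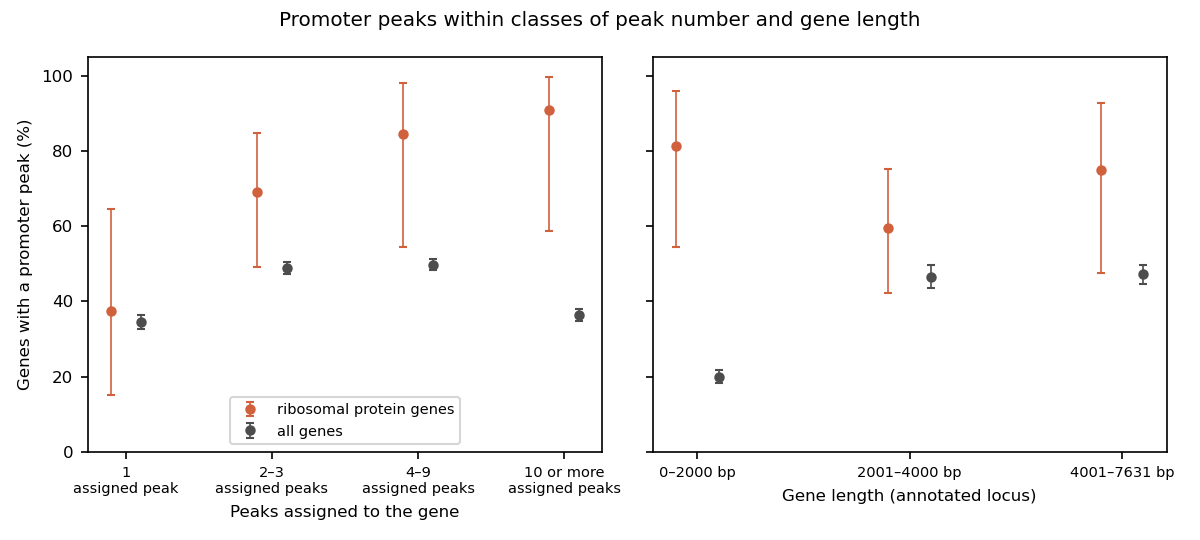
Share of genes with a promoter peak (%, y axis) by number of assigned peaks (left) and by annotated gene length (right), for ribosomal protein genes and for all genes of the table; bars are exact 95% binomial intervals. With 1 assigned peak the shares are 37.5% and 34.5%; with 10 or more they are 90.9% and 36.3%.

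Promoter peaks were compared between genes with and without a TOP-type start within 5 bases of the annotated start. The split depends on that start, since 82.5% had a tract within 20 bases. Rpl12, with a tract, counts as without a promoter peak, as the peak near its TSS was assigned to Lrsam1. Of 32 genes with such a start 22 had a promoter peak (68.8%), and of 25 without it 18 did (72.0%). The median of their highest promoter signal was 6.83 (range 2.63 to 17.1) with and 4.77 (2.64 to 9.34) without the tract, and the ranges overlap. The difference between the medians was not tested. The sequences printed above show the same mixture, with tracts in Rpl31, Rps27, Rpl37 and Rps18, which had promoter peaks, and also in Rpl28, which had none. Rpl18 and Rps19 had promoter peaks of 9.34 and 7.98 without a tract in the window. With the motif CCGGAAG 15 of 21 had a promoter peak (71.4%), and without it 25 of 36 (69.4%).

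Genes mutated in Diamond-Blackfan anaemia were 1 of the lists compared. Of 19 listed, 17 were in the table and 14 of these had a promoter peak (82.4%, 56.6 to 96.2), led by Rpl31. Rps24, Rps26 and Rps28 had none, and Rpl5 and Rpl35a were not in the table. Of 9 genes of proteins near the exit tunnel, 6 were in the table. Of these 6, 5 had a promoter peak (83.3%, 35.9 to 99.6), Rpl39 being the exception. Of genes that carry small nucleolar RNAs in their introns, 9 of 13 did (69.2%, 38.6 to 90.9), led by Rps20 and Rps13 (7.35). Of 4 "-like" paralogs, Rpl22l1 and Rpl36al had promoter peaks of 3.50 and 2.78, and Rps27l and Rpl39l none. Rpl36al was annotated on chromosome 18 in rn5 but on chromosome 6 in GRCr8, so the locus of its peak is uncertain. These lists overlap one another and are small. The intervals of the anaemia, exit tunnel and small nucleolar RNA lists include the 68.1% of all 69 genes. Those of the exit tunnel and small nucleolar RNA lists also include the 43.2% of all genes of the table.

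Other genes of the pathway showed promoter peaks in part. Fau, which encodes a ribosomal protein of the small subunit fused to a ubiquitin-like protein, had 1 with a signal of 10.5 at 94 bp downstream. Of other genes with TOP mRNAs, 10 of 14 in the table had a promoter peak (71.4%, 41.9 to 91.6), led by Tpt1, a translationally controlled protein, with 16.1, and Btf3, a subunit of the nascent polypeptide-associated complex, with 8.88. The elongation factors Eef1a1 and Eef2 had 6.78 and 7.02. Of regulators of TOP translation, 6 of 11 did (54.5%, 23.4 to 83.3), led by the cap-binding protein Eif4e with 9.49 and the mTOR partner Mlst8 with 8.66. Of ribosome biogenesis factors 18 of 34 did (52.9%, 35.1 to 70.2), led by the snoRNP proteins and processing factors Nop56 with 10.3 and Wdr43 with 7.73. The intervals of the TOP mRNA, regulator and biogenesis lists all include the 43.2% of all genes of the table. Myc, a driver of ribosome production, had 111 assigned peaks and none in the promoter. Mdm2, the only gene of the p53 list with a promoter peak, had 11.3, and Cdkn1a had none.

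Mitochondrial ribosomal protein genes and translation initiation factor genes were set beside the cytosolic ones. Of 48 mitochondrial ribosomal protein genes 25 had a promoter peak (52.1%, 37.2 to 66.7), with a median of the highest signal of 4.09. Of 41 initiation factor genes 27 did (65.9%, 49.4 to 79.9), with 5.96. The interval of each overlapped that of the cytosolic genes, and differences between the 3 groups were not tested. Like that of the cytosolic genes, the interval of the initiation factor genes lay above the 43.2% of all genes of the table. The mitochondrial interval included that share.

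**Figure D4:**
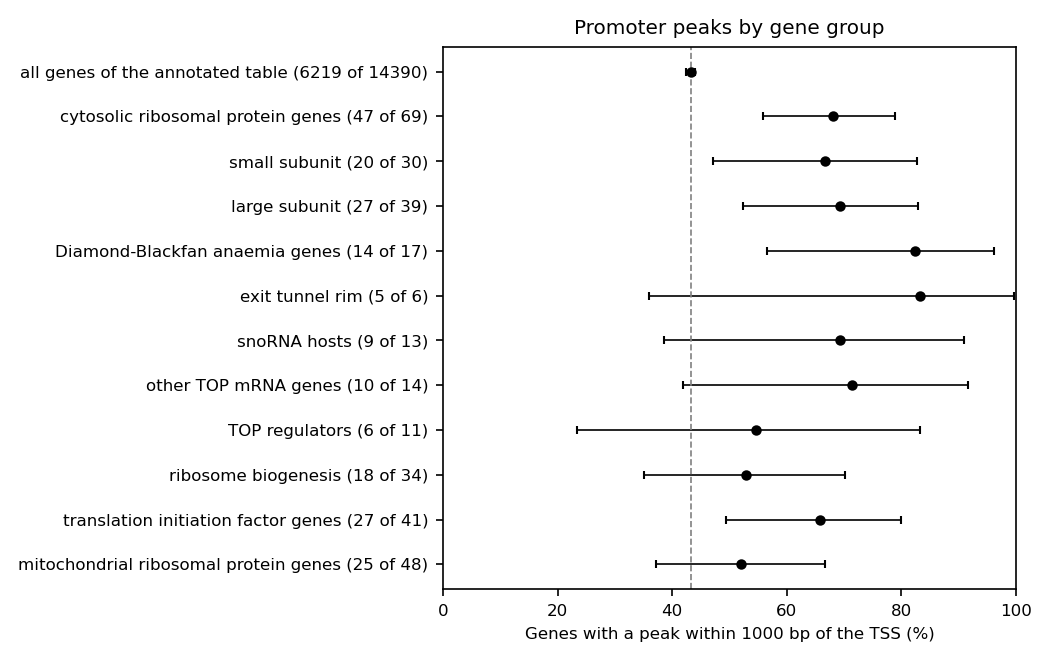
Share of genes with a promoter peak (%, x axis) in ribosomal protein genes, their subgroups and related lists (y axis, with counts); bars are exact 95% binomial intervals and the dashed line is the share over all genes of the table, 43.2%. The intervals of all 69 ribosomal protein genes, 55.8 to 78.8, and of translation initiation factor genes, 49.4 to 79.9, lie to the right of the line. That of mitochondrial ribosomal protein genes, 37.2 to 66.7, includes it.

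None of the other 3 lists had a peak within 1000 bp of an annotated TSS of these genes. The count was 0 of 81 peaks for M2 in α1ACT cells, which allows a share of up to 3.70%, 0 of 272 for 1804 in empty-vector cells (up to 1.10%) and 0 of 244 for M2 in empty-vector cells (up to 1.23%). In the α1ACT 1804 list, 66 of 161730 peaks lay that near (0.0408%), a share far below these limits, so lists of this length cannot show a difference. The nearest empty-vector 1804 peak lay 39.9 kb from the TSS of Rpl36. The lowest signal in an empty-vector list was 14.0, which 1 of the 60 promoter peaks, that of Rpl31, exceeded. How signals compare from list to list is not known, and a peak missing from a short list does not show that a promoter peak depends on α1ACT.

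As a check of the cell type, all 4 of the chromaffin and sympathetic markers in the table, Th, Chga, Chgb and Phox2a, had a promoter peak, and Dbh was not in the table. Of 4 markers of other tissues, Actn2 (muscle) and Apoc3 (liver) had one. Peaks do not measure expression.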

How the data were processed

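Chromatin of 6 PC12 libraries, 1 per group, was sequenced after crosslinking with 1% formaldehyde for 10 min, per the labels' protocols. Inputs were not used here. Per the submitters' processing notes, the tools were BWA 0.7.5a, HOMER, FastQC 0.11.2, ChIPseeker and DiffBind, with no role stated, and the genome was rn5. The sources used here do not give the peak caller's settings. The authors deposited, per library, a signal value and a −log10 q-value for each 56 bp peak, and 1 annotated table of α1ACT 1804 peaks in neither empty-vector list, with other columns such as the signed distance to the TSS. The table holds 159452 of the 161730 peaks of that library. Whether overlap with the empty-vector lists (272 and 244 peaks) accounts for all those left out was not tested. Signals were joined to the table by position, and every annotated peak matched. Coordinates are on rn5, 1-based. The authors' distance runs to the peak's start for upstream and its end for downstream peaks, on both strands, which shifts plus-strand distances by 55 bp.

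Genes were counted by a peak within 1000 bp, with exact 95% binomial (Clopper-Pearson) intervals, which cover counting error only; a count of 0 is given the limit of 3 counts. No test was run. The counting was tested on simulated data. Members and lists were chosen with earlier results of these data known. Genes are named by a rule: the 10 highest promoter signals, the 5 genes with most promoter peaks and the 5 with most peaks, the 3 lowest, those at the limit, those without a promoter peak, a fixed set of well-known members, and the 2 leading genes of each list; further genes were named after their values were seen. Promoter sequences were matched by gene ID or symbol and 12 had no entry. Some genes are counted but not reported here by name. Python 3.11.15, pandas 2.3.3 and SciPy 1.17.1 were used. Alternatives were other distances, signal limits, loci, merged peaks and TOP windows, and, chosen after seeing the data, peaks of neighbouring genes, genes with 1 locus and distances from the peak centre.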

Additional observations from a re-analysis of the deposited data

Results flagged for a closer look

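Peaks that the authors assigned to a neighbouring gene, and which the counts therefore do not use, lay near the TSS of 4 ribosomal protein genes. The other 3 lists had no peak there, but they are too short to show a difference. The strongest was the peak of 15.0 upstream of Rpl12, assigned to Lrsam1. Upstream of Rps18 lay 2 peaks with signals of 3.87 and 2.33, assigned to Vps52, upstream of Rpl15 one of 2.70, assigned to Nkiras1, and upstream of Rps29 one of 2.69, assigned to LOC102723236. Rps18, Rpl15 and Rps29 also had promoter peaks of their own. Which gene of each pair such a peak belongs to was not tested.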

How the results depend on the processing

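The number of ribosomal protein genes with a promoter peak stayed within 1.5 times of 47 under all alternatives tried but 1, from 41 (upper 50% of peaks by signal) to 51 (within 3000 bp, or the authors' promoter annotation). The share over all genes moved too. In the upper 50% by signal it was 35.3%, against 59.4% of the 69, and within 3000 bp 52.3%, against 73.9%. In the upper 10% by signal the number of ribosomal protein genes fell to 29 of 69 (42.0%), where 19.7% of all genes had one. The number of promoter peaks fell to 30 from 60, since fewer peaks were counted. The share with a TOP-type start moved from 56.1% to 35.1% exactly at the start and to 82.5% within 20 bases. The median signal ran from 5.82 to 6.01 and the share downstream from 60.7% to 70.0%. No paired analysis was possible because each group holds 1 library, and for the same reason no library could be left out. Read depth is unknown, so absence of a peak does not show absence of signal.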
